A study of Homo sapiens with 12 samples.

Results

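The guidance families of MDA-MB-231 cells, a widely used human cell line from a triple-negative breast tumour, are described here from 1 table of RNA read counts. Members were chosen by gene symbol: semaphorins of classes 3 to 7, plexins, neuropilins, ephrins, Eph receptors, slits, ROBO receptors, netrins and UNC5 receptors. They were proposed with earlier results of these data known. The name patterns matched 69 of 57773 rows, and the 54 rows with at least 10 counts in 3 or more libraries are described. These 54 rows carry 53 symbols, because EFNA3 stands on 2 rows, and all 54 also passed the filter on low counts that left 20571 genes to be tested. They comprise 18 semaphorins, 11 plexins and neuropilins, 9 ephrin rows, 8 Eph receptors, 3 slits, 3 ROBO receptors, 1 netrin (NTN4) and 1 UNC5 receptor (UNC5B).

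The study has 4 groups of 3 libraries. One group had no treatment, the others received TGFβ, alisertib, or both together (the Combination group) for 48 h, and every group was the same line grown in medium with fetal bovine serum. TGFβ is a cytokine whose receptors phosphorylate SMAD transcription factors, and alisertib inhibits Aurora A, a kinase of mitosis. The sources used here give no doses. Separate cultures for the 3 libraries of a group are not stated, so the p-values cover the spread of these libraries alone, which may be technical.

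Guidance molecules were named for steering growing axons, and the same ligands and receptors act in blood vessels, immune cells and tumours. Semaphorins signal through plexins, and most secreted class 3 semaphorins also need a neuropilin to hold the ligand. Ephrins are bound to the membrane and meet Eph receptor tyrosine kinases on a neighbouring cell, A ephrins through a lipid anchor and B ephrins through a transmembrane segment. Slits bind receptors of the ROBO family such as ROBO1, and netrins bind DCC, neogenin and the UNC5 receptors. Many of these receptors act on the actin skeleton through small GTPases.

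Depth ranged from 93701658 to 105563951 counts over the 6 libraries without TGFβ and from 105921831 to 120619368 over the 6 with it. Genes of the TGFβ response moved with the labels: 7 of 8 tested were higher with TGFβ, and their summed level was 1573 to 1743 CPM (counts per 1e6 reads, scaled by TMM factors) in untreated libraries and 16148 to 17415 CPM with TGFβ. VIM, CD44 and EGFR, which this line is known to express, averaged 1230.4 ± 5.85, 1181 ± 102 and 393 ± 9.27 CPM in untreated cells (mean ± SD, n = 3), and the hormone receptors ESR1 and PGR averaged 0.0173 ± 0.0221 and 0.00704 ± 0.0122 CPM. The list of 7 identity genes also held ERBB2 and CDH1, whose values are not given here. In every group a single library deviated most, namely library 1 without treatment, 6 with TGFβ, 9 with alisertib and 10 with both; these are called the libraries that stood apart. Over 14243 genes the deviations of these 4 from their group means correlated pairwise at 0.509 to 0.723. They held 42, 33, 36 and 41 of the 54 members below the group mean, against 14 to 22 in the other 8 libraries. Results that move without these 4 libraries are given both ways.

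Per unit of transcript length, by the RPKM values that the authors deposited (reads scaled to transcript length and library size, not by TMM), the members spanned more than 4 orders of magnitude. In untreated cells EPHA2, a receptor often raised in basal breast cancers, was highest at 33.5 ± 6.07 RPKM (mean ± SD, n = 3), next to the class 3 co-receptor NRP1 at 32.6 ± 0.745; their ranges overlapped. SEMA3C followed at 20.4 ± 0.761 and EPHB2 at 14.6 ± 2.64, then PLXNB2 at 10.8 ± 3.24 and EFNB2 at 10.6 ± 0.254, which overlapped each other. SEMA7A was in position 8 with 7.56 ± 1.01 RPKM. With TGFβ the order changed at the top: SEMA7A reached 74.9 ± 6.85 and EPHB2 63.7 ± 5.62 RPKM, and SEMA3C, EPHA2 and NRP1 followed at 42.4 ± 2.11, 36 ± 4.02 and 24.7 ± 1.23. SLIT3, ROBO1, SEMA4A, SEMA6A and SLIT1 were at most 0.0243 RPKM in the mean of every group.

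**Figure D1:**
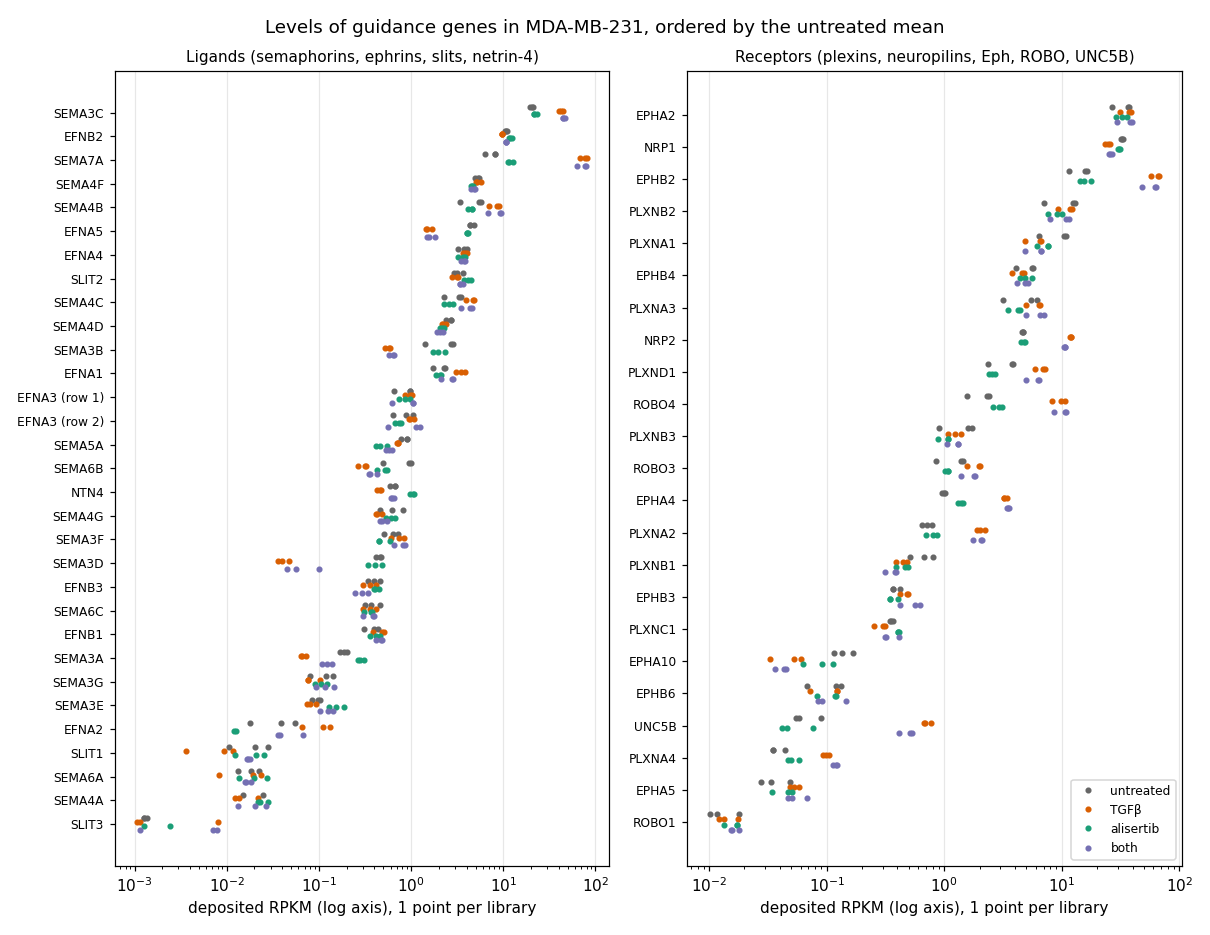
Deposited RPKM of the 54 described guidance rows in each of the 12 libraries, on a log axis, ligands left and receptors right, ordered by the untreated mean. Colours mark the 4 groups, values of 0 are not drawn, and SEMA7A, EPHB2, ROBO4, UNC5B and SEMA3D show the widest separation between libraries with and without TGFβ.

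Summed over all 54 rows, the members took 1556 ± 141 CPM in untreated cells, 2601 ± 144 with TGFβ, 1489 ± 52.7 with alisertib and 2536 ± 212 with both (mean ± SD, n = 3). SEMA7A, EPHB2 and SEMA3C, chosen after their values were seen, made up 272 ± 16.1 CPM of the untreated sum and 1135 ± 63.3 CPM of the TGFβ sum, which is 17.5% and 43.7%. The other rows together went from 1284 ± 125 to 1465 ± 80.8 CPM. In bulk RNA of this kind a change in the share of cells that express a gene and a change in RNA per cell cannot be told apart.

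TGFβ alone raised 15 and lowered 10 of the 54 members (edgeR quasi-likelihood test, Benjamini-Hochberg adjusted p under 0.05). That is 46.3% of the members, where 38.6% of all tested genes were called in this comparison, 18.5% higher and 20.1% lower. Changes of at least 2-fold were called in 11 members upward and 6 downward, where 5.48% of all genes were called so upward and 5.41% downward. The median log2 fold change was 0.13 over the members and -0.01 over all genes, and the median size regardless of sign was 0.42 against 0.27. The libraries of the 2 groups did not overlap for any called member except PLXNA1, where 46.4% of all tested genes, called or not, did not overlap. UNC5B, SEMA7A, ROBO4, EPHB2 and EPHA4 had the largest increases at more than a few reads, and SEMA3D and SEMA3B the largest decreases.

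Promoters of 4 of the genes that changed with TGFβ are printed because 2 of them, SEMA7A and ROBO4, rose and 2, SEMA3D and EFNA5, fell, and TGFβ acts through SMAD proteins that bind DNA. Each sequence is the 250 bases before the outermost RefSeq start in GRCh38.p14, 5′ to 3′ on the gene's own strand, which is the minus strand for all 4. Capitals mark CAGAC or its reverse complement GTCTG, the short SMAD-binding element.
SEMA7A (chr15:74433959-74434208): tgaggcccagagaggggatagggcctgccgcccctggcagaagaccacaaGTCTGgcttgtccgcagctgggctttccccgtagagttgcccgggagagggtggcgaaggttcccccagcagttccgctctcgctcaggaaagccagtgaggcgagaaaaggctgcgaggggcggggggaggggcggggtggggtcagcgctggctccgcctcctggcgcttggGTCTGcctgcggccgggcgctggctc
ROBO4 (chr11:124897866-124898115): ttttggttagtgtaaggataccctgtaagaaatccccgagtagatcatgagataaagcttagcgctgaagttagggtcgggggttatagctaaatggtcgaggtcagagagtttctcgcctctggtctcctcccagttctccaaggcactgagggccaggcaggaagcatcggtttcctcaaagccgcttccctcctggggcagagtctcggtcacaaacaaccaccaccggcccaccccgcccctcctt
SEMA3D (chr7:85187057-85187306): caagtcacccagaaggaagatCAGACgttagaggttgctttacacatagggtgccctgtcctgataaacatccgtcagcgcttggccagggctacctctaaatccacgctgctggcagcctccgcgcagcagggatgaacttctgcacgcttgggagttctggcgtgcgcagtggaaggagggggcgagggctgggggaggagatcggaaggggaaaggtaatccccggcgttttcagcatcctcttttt
EFNA5 (chr5:107670938-107671187): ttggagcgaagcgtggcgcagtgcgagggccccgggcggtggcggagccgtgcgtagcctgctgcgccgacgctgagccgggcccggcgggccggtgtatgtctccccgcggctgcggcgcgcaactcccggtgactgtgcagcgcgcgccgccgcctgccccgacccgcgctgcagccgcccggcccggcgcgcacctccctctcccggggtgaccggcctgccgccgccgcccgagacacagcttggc

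The element occurred at 2 places in the SEMA7A stretch and at 1 place in that of SEMA3D, and these letters did not occur in the ROBO4 and EFNA5 stretches. Over windows of 300 bases, from 250 before to 50 after the start, CAGAC on either strand was found in 45.3% of all 35116 promoters and in 30 of 70 windows of the members. Of members with a matched promoter it was found in 6 of 14 genes called higher with TGFβ, 3 of 6 called lower and 13 of 26 not called. The palindromic element GTCTAGAC was in 0.202% of all promoters and in 0 of the 70, and the AP-1 element TGANTCA in 7.71% and in 1 of the 70. Of the 69 rows 59 had a promoter in the table, and UNC5B, SEMA3A, SEMA6B, NRP1, EPHA10, SEMA6A and EFNB3 were among the 10 without one.

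Among the semaphorins, 4 of 18 rose with TGFβ (SEMA7A, SEMA3C, SEMA4B, SEMA4C) and 4 fell (SEMA3D, SEMA3B, SEMA3A, SEMA6B). That is 44.4% called, near the 38.6% of all tested genes. SEMA7A (ENSG00000138623, chr15:74701630-74726808 in hg19), a semaphorin held to the membrane by a lipid anchor that binds PLXNC1 and β1 integrins, stood at 30.1, 37.6 and 37.5 CPM in untreated libraries 1 to 3 and at 379, 399 and 330.4 CPM in TGFβ libraries 4 to 6. It was 10.5-fold higher, a log2 fold change of 3.40 ± 0.11 (SE, here and for all fold changes that follow) with an adjusted p of 1.46e-11. Every TGFβ library was far above every untreated one. SEMA3C (ENSG00000075223, chr7:80371854-80551675), a secreted ligand of neuropilins with PLXND1, read 144, 132 and 137 CPM without treatment and 300.3, 292 and 319 CPM with TGFβ, 2.21-fold higher (log2 1.14 ± 0.05, adjusted p 3.25e-10). Its libraries were tight within each group and did not overlap. SEMA4B (ENSG00000185033, chr15:90703836-90772911), a transmembrane semaphorin, read 26, 43.2 and 40.5 CPM and then 67.9, 73.2 and 56.4 CPM, with the lowest value of each group in its library that stood apart. The difference was 1.8-fold (log2 0.85 ± 0.16, adjusted p 0.000811) and SEMA4C, of the same class, was 1.59-fold higher (log2 0.67 ± 0.14, adjusted p 0.00158).

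The semaphorins that fell were mostly secreted class 3 ligands. SEMA3D (ENSG00000153993, chr7:84624869-84816171), which acts through neuropilins in vessel and heart development, read 4, 4.12 and 3.56 CPM without treatment and 0.441, 0.337 and 0.367 CPM with TGFβ, and was 10.2-fold lower (log2 -3.35 ± 0.24, adjusted p 4.69e-08). All 3 TGFβ libraries were far below the untreated ones. SEMA3B (ENSG00000012171, chr3:50304990-50314977), described as a tumour suppressor in a region of chromosome 3 often lost in cancers, read 8.95, 16.7 and 17.4 CPM and then 3.79, 3.94 and 3.46 CPM, 3.86-fold lower (log2 -1.95 ± 0.20, adjusted p 2.08e-06). Untreated library 1 was well below its partners and still above every TGFβ library. SEMA3A (ENSG00000075213, chr7:83585093-84122040), the classic growth-cone collapsing ligand of NRP1, read 2.08, 1.72 and 1.85 CPM and then 0.778, 0.684 and 0.7 CPM, 2.61-fold lower (log2 -1.38 ± 0.14, adjusted p 1.86e-06). SEMA6B (ENSG00000167680, chr19:4542600-4559820), a transmembrane ligand of A plexins, read 2.42, 4.47 and 4.73 CPM and then 1.61, 1.67 and 1.33 CPM, 2.52-fold lower (log2 -1.34 ± 0.21, adjusted p 0.000145). Its groups did not overlap, with untreated library 1 closest to the TGFβ libraries. SEMA3E, SEMA3A and SEMA3D are neighbours on chromosome 7, with gaps of 306767 and 502829 bases in hg19, and SEMA3E was not called with TGFβ (-0.12 ± 0.19).

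On the receptor side of the semaphorins 4 of 11 rose (PLXNA2, PLXNA4, NRP2, PLXND1) and 3 fell (PLXNA1, PLXNB1, NRP1), 63.6% called beside 38.6% of all tested genes. PLXNA2 (ENSG00000076356, chr1:208195587-208417665), a signalling receptor for class 3 and class 6 semaphorins, read 9.7, 10.6 and 11.5 CPM untreated and 31.9, 35.1 and 29.8 CPM with TGFβ, 3.04-fold higher (log2 1.60 ± 0.10, adjusted p 1.19e-08). PLXNA4 (ENSG00000221866, chr7:131808091-132333447), of the same class, read 0.792, 0.62 and 0.606 CPM and then 1.94, 1.74 and 1.85 CPM, 2.75-fold higher (log2 1.46 ± 0.14, adjusted p 1.14e-06). Both had no overlap between the groups. NRP2 (ENSG00000118257, chr2:206546714-206662857), the co-receptor for SEMA3F and SEMA3C that also binds lymphatic growth factors, read 57.7, 56 and 56.8 CPM and then 152, 156 and 154 CPM, 2.71-fold higher (log2 1.44 ± 0.04, adjusted p 5.51e-12), with an SD of 0.852 and 2.08 CPM within the groups. PLXND1 (ENSG00000004399, chr3:129274018-129325661), the receptor of SEMA3E and, with neuropilins, of SEMA3C, read 25, 39.4 and 40.2 CPM and then 77.5, 80.2 and 66 CPM, 2.14-fold higher (log2 1.10 ± 0.15, adjusted p 3.9e-05). The library that stood apart was the lowest in both groups, and the groups did not overlap.

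The other neuropilin went the opposite way: NRP1, which pairs with SEMA3A and VEGF, was 1.24-fold lower with TGFβ (log2 -0.31 ± 0.05, adjusted p 6.84e-05), from 404 ± 13.7 to 325 ± 14.9 CPM (mean ± SD, n = 3). PLXNA1 was 1.43-fold lower (log2 -0.51 ± 0.18, adjusted p 0.0355) with overlapping libraries. PLXNB1, the SEMA4D receptor, was 1.42-fold lower (log2 -0.50 ± 0.15, adjusted p 0.014). The call for PLXNA1 was lost without untreated library 2 or 3 or TGFβ library 4 or 6, with an adjusted p of up to 0.197, with no filter on low counts (0.196) and in a fit of only the 2 groups (0.0896), and that for PLXNB1 without untreated library 3 (0.0857) or TGFβ library 6 (0.0594).

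Of the 9 ephrin rows EFNA1 and EFNA2 rose with TGFβ and EFNA5 fell, 33.3% called beside 38.6% of all tested genes. EFNA5 (ENSG00000184349, chr5:106712590-107006596), a lipid-anchored ligand of the A receptors and of EPHB2, read 27.4, 27 and 29.5 CPM untreated and 9.41, 9.73 and 10.8 CPM with TGFβ, 2.79-fold lower (log2 -1.48 ± 0.08, adjusted p 1.9e-09). All untreated libraries were above all TGFβ libraries. EFNA1, the main ligand of EPHA2, was 1.73-fold higher (log2 0.79 ± 0.13, adjusted p 0.000273), from 5.82 ± 0.856 to 10.1 ± 1.16 CPM. EFNA2 (ENSG00000099617, chr19:1286153-1301430) rests on few reads, 4, 13 and 9 counts untreated and 17, 35 and 31 with TGFβ, or 0.0423, 0.126 and 0.0879 CPM and 0.159, 0.328 and 0.271 CPM. Its groups did not overlap (log2 1.54 ± 0.52, adjusted p 0.0295), but the call was lost without untreated library 1 (adjusted p 0.109) or 3 (0.073), or without TGFβ library 5 (0.118) or 6 (0.0705), and without all 4 libraries that stood apart (0.108). The span of EFNA2, introns included, overlaps that of MUM1, which holds many more reads. The library kit does not mark strand, so reads from overlapping exons could not be told apart. Whether the exons overlap was not tested.

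Of the 8 Eph receptors EPHB2 and EPHA4 rose and EPHA10 fell, 37.5% called beside 38.6% of all tested genes. EPHB2 (ENSG00000133216, chr1:23037332-23241818), the receptor of the B ephrins, read 80.0, 108 and 111 CPM in untreated libraries and 481, 491 and 413 CPM with TGFβ, 4.64-fold higher (log2 2.22 ± 0.14, adjusted p 8.12e-09). EPHA4 (ENSG00000116106, chr2:222282747-222438922), which binds both A and B ephrins, read 8.37, 7.75 and 8.05 CPM and then 27.6, 27.9 and 29.7 CPM, 3.52-fold higher (log2 1.82 ± 0.06, adjusted p 2.24e-11). For both, the lowest TGFβ library was more than 3 times the highest untreated one. EPHA10 (ENSG00000183317, chr1:38179552-38230805), an Eph protein without an active kinase, read 1.02, 1.18 and 1.45 CPM and then 0.563, 0.497 and 0.306 CPM, 2.68-fold lower (log2 -1.42 ± 0.25, adjusted p 0.000403), at a low level throughout. EPHA2, the most abundant Eph transcript, was not called (0.19 ± 0.13, 95% interval -0.11 to 0.50), nor was EPHB4 (-0.13 ± 0.13, -0.43 to 0.17).

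In the slit and netrin systems the called increases were receptors of the ROBO and UNC5 families. ROBO4 (ENSG00000154133, chr11:124753587-124768396), a roundabout receptor best known from endothelium, read 12, 17.6 and 17.9 CPM untreated and 79.2, 86.2 and 66.7 CPM with TGFβ, 4.89-fold higher (log2 2.29 ± 0.15, adjusted p 1.44e-08). Its groups were far apart, with the lowest values in untreated library 1 and TGFβ library 6. Its neighbour ROBO3, 2221 bases away on chromosome 11 in hg19, was 1.59-fold higher (log2 0.67 ± 0.17, adjusted p 0.00551), a call lost with no filter on low counts (0.0515). UNC5B (ENSG00000107731, chr10:72972327-73062621), a netrin receptor linked to repulsion and cell survival, read 0.433, 0.407 and 0.655 CPM and then 6.02, 5.41 and 5.24 CPM, or 41 to 67 counts against 577 to 642, 11.1-fold higher (log2 3.47 ± 0.21, adjusted p 5.51e-09). Its 3 TGFβ libraries were all near the group mean of 5.56 ± 0.411 CPM. The 1 netrin described, NTN4, a laminin-like member found in basement membranes, was 1.34-fold lower (log2 -0.42 ± 0.10, adjusted p 0.0029). The slit ligands were not called, SLIT2 with 0.01 ± 0.09 (95% interval -0.19 to 0.21).

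**Figure D2:**
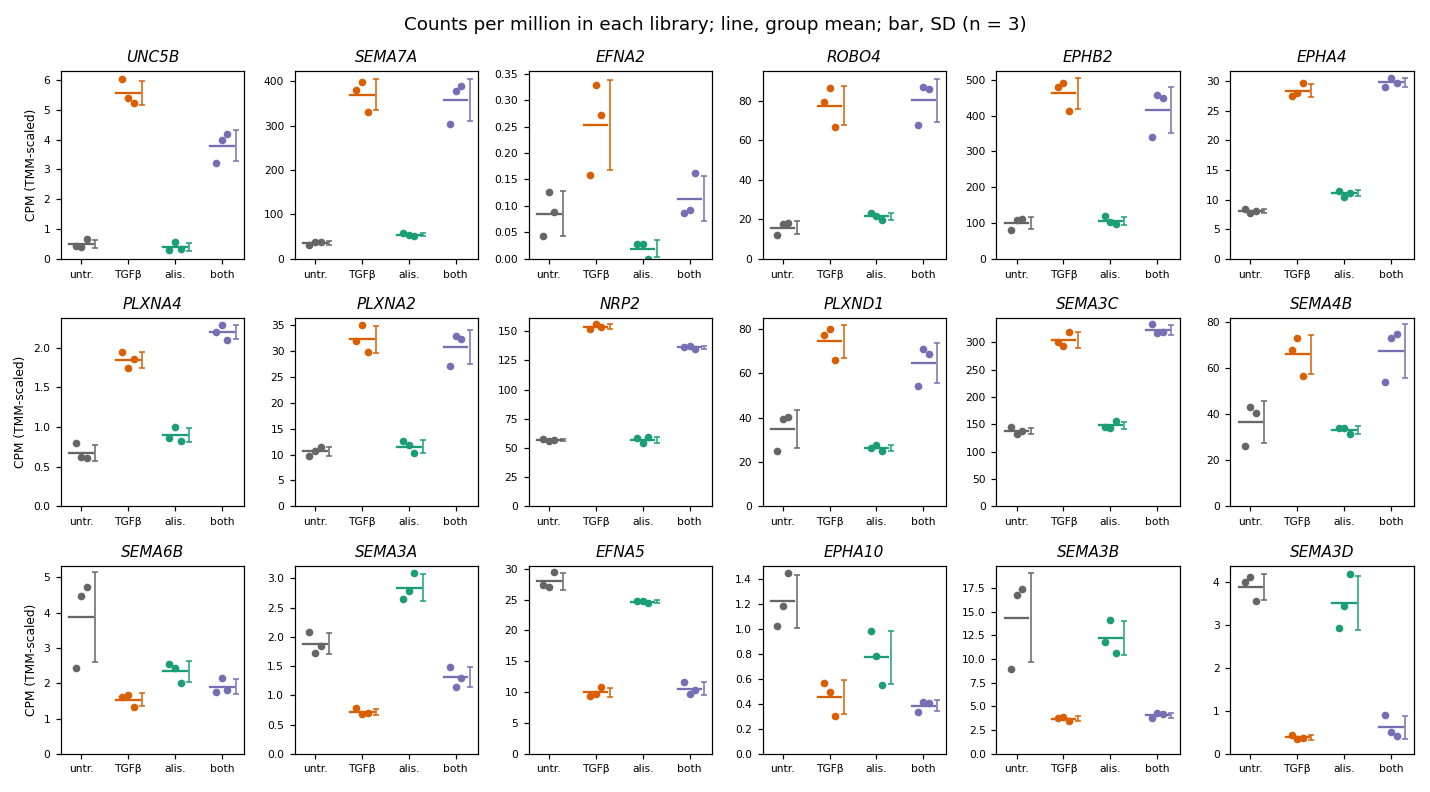
TMM-scaled CPM of the 18 members called with at least a 2-fold change in 1 or more pairwise comparisons, 1 panel per gene with its own linear axis from 0. Points are libraries, lines are group means and bars are SD (n = 3), and in all but EFNA2, EPHA10 and SEMA6B the 2 groups with TGFβ lie on 1 side of the 2 groups without it.

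Set side by side as ligand and receptor, per length, the partners did not all move together. RPKM is not scaled by TMM, so calls and log2 fold changes here are those of the edgeR test on counts. SEMA7A went from 7.56 ± 1.01 to 74.9 ± 6.85 RPKM while its plexin PLXNC1 stayed low at 0.355 ± 0.00956 and 0.29 ± 0.0343, not called (log2 -0.20 ± 0.12, adjusted p 0.194). ITGB1, the integrin chain that SEMA7A also binds, rose with TGFβ (log2 1.29 ± 0.06). SEMA3C rose, as did its receptors NRP2, from 4.63 ± 0.0593 to 11.8 ± 0.136 RPKM, and PLXND1, from 3.33 ± 0.848 to 6.7 ± 0.653, while the more abundant neuropilin NRP1 fell. SEMA3A fell from 0.187 ± 0.0161 to 0.0673 ± 0.0048 RPKM beside NRP1 at 32.6 ± 0.745 and 24.7 ± 1.23. For EFNA5 and EPHA4 the order turned, with the ligand at 4.55 ± 0.263 and the receptor at 0.99 ± 0.0314 RPKM untreated, and 1.53 ± 0.118 and 3.29 ± 0.14 with TGFβ. EFNB2, a transmembrane ligand of EPHB2, was 10.6 ± 0.254 and 9.71 ± 0.0919 RPKM and was not called (log2 -0.04 ± 0.04, 95% interval -0.14 to 0.06). SLIT2 was 3.23 ± 0.356 RPKM in untreated cells, where the slit receptor ROBO1 was 0.0132 ± 0.00407. Of the same family ROBO4 was 2.09 ± 0.46 and ROBO3 1.23 ± 0.334, and binding of slits to these was not tested.

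With alisertib present in both groups, TGFβ changed most of the same members in the same direction. Both agents against alisertib alone gave 19 members higher and 7 lower, 48.1% of the members beside 38.4% of all genes (19.4% higher and 19% lower). Of them 12 were higher and 4 lower by at least 2-fold, where 4.94% and 4.58% of all genes were. The 2 TGFβ comparisons share no library: 15 members were higher in both and 7 lower in both, none was called in opposite directions, and 31.6% of all tested genes were called in both with 1 sign. That takes in all 15 members that rose with TGFβ alone and 7 of the 10 that fell. PLXNA1, PLXNB1 and SEMA6B were called lower only without alisertib, and SEMA3F, PLXNA3, EPHB3 and SEMA5A were called higher only with it. Of those 7 none was called in the interaction, the test of that difference itself.

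The per-library values with alisertib showed the same separation for the members with the largest changes. SEMA7A read 58.6, 52.5 and 51.7 CPM in alisertib libraries 7 to 9 and 304, 378 and 389 CPM in Combination libraries 10 to 12 (log2 2.72 ± 0.11, adjusted p 1.46e-10). UNC5B read 0.302, 0.553 and 0.339 CPM and then 3.2, 4 and 4.17 CPM (log2 3.25 ± 0.21, adjusted p 1.88e-08). ROBO4 read 23, 21.7 and 19.4 CPM and then 67.5, 87.1 and 85.9 CPM (log2 1.91 ± 0.15, adjusted p 1.06e-07). For all 3 the Combination libraries were above every alisertib library, with Combination library 10 lowest, where 50.3% of all tested genes, called or not, did not overlap between these groups. EPHB2 read 119, 103 and 97.2 CPM and then 341, 457 and 450.0 CPM (log2 1.97 ± 0.13, adjusted p 3.33e-08). EPHA4 read 11.5, 10.5 and 11.2 CPM and then 29.1, 30.6 and 29.7 CPM (log2 1.43 ± 0.06, adjusted p 2.81e-10). The 2 Eph receptors thus again stood well above their level without TGFβ.

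Among the other semaphorin genes, SEMA3C read 145, 143 and 156 CPM with alisertib and 334, 316 and 319 CPM with both (log2 1.13 ± 0.05, adjusted p 5.03e-10). SEMA4B read 33.8, 34.1 and 31.3 CPM and then 54.1, 73.1 and 74.9 CPM (log2 1.03 ± 0.16, adjusted p 0.000184), its largest change in any comparison. Neither gene's groups overlapped. NRP2 read 58.2, 54.3 and 59.2 CPM and then 136, 138 and 135 CPM (log2 1.25 ± 0.04, adjusted p 3.6e-11), PLXND1 26.5, 27.7 and 25 CPM and then 54.3, 71.2 and 68.9 CPM (log2 1.30 ± 0.15, adjusted p 9.3e-06). PLXNA2 read 12.6, 11.8 and 10.2 CPM and then 27.1, 33 and 32.4 CPM (log2 1.42 ± 0.10, adjusted p 5.2e-08), and PLXNA4 0.86, 1 and 0.829 CPM and then 2.2, 2.29 and 2.1 CPM (log2 1.29 ± 0.14, adjusted p 3.22e-06). All 4 receptors were separated between the groups.

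The decreases were also present beside alisertib. SEMA3D read 2.94, 3.44 and 4.19 CPM with alisertib and 0.915, 0.516 and 0.412 CPM with both (log2 -2.53 ± 0.23, adjusted p 6.12e-07), and SEMA3B 11.9, 14.2 and 10.6 CPM and then 3.73, 4.26 and 4.21 CPM (log2 -1.59 ± 0.20, adjusted p 1.75e-05). EFNA5 read 24.7, 24.8 and 24.5 CPM and then 11.7, 9.69 and 10.3 CPM (log2 -1.22 ± 0.08, adjusted p 1.77e-08). None of the 3 overlapped between the groups. SEMA3A read 2.65, 2.78 and 3.1 CPM and then 1.48, 1.14 and 1.3 CPM, 2.17-fold lower (log2 -1.12 ± 0.13, adjusted p 9.5e-06), also with no overlap. EPHA10 read 0.979, 0.782 and 0.549 CPM and then 0.337, 0.415 and 0.404 CPM (log2 -1 ± 0.26, adjusted p 0.00783), a change just under 2-fold, with alisertib library 9 the closest to the Combination libraries. SEMA6B read 2.55, 2.44 and 2.01 CPM and then 1.74, 2.15 and 1.8 CPM, which overlapped (log2 -0.30 ± 0.21, adjusted p 0.29). EFNA2 had 3, 3 and 0 counts in the alisertib libraries and 9, 10 and 19 in the Combination libraries (adjusted p 0.0112), a call lost without Combination library 12 (adjusted p 0.0567).

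The other members called here, with changes under 2-fold, were SEMA4C (log2 0.78 ± 0.14), ROBO3 (0.75 ± 0.17), SEMA3F (0.74 ± 0.17), PLXNA3 (0.70 ± 0.19), EPHB3 (0.65 ± 0.15), EFNA1 (0.45 ± 0.13) and SEMA5A (0.37 ± 0.10), which rose, and NTN4 (-0.63 ± 0.09) and NRP1 (-0.15 ± 0.05), which fell. The call for EFNA1 was lost without alisertib library 9 or Combination library 11 or 12 (adjusted p up to 0.0964), that for SEMA5A without alisertib library 7 or 9 or Combination library 12 (up to 0.0729), that for NRP1 without Combination library 11 (0.0822) and that for PLXNA3 without alisertib library 9 (0.0594) or with no filter on low counts (0.102). The span of EPHB3 overlaps that of EIF2B5, which holds many more reads.

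**Figure D3:**
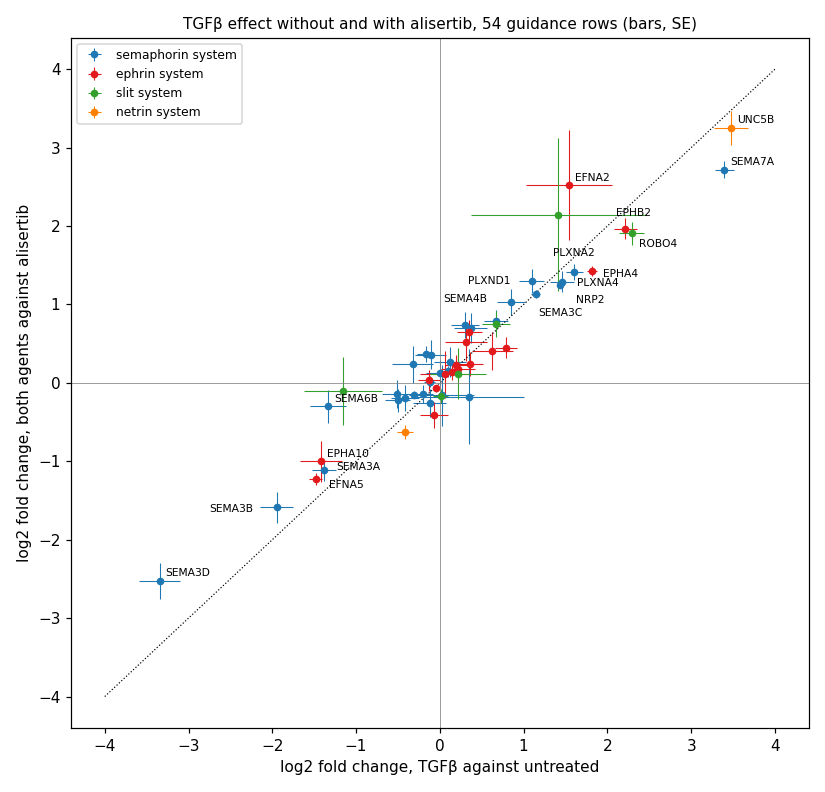
Log2 fold change of each of the 54 guidance rows with TGFβ against untreated cells (x axis) and with both agents against alisertib (y axis), with bars for SE and a dotted line where both are equal. Members called with at least a 2-fold change in any pairwise comparison are named, and all of them have the same sign on both axes.

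Alisertib alone was followed by smaller differences: 6 members rose and 4 fell, none by 2-fold (0.515% of all genes rose and 0.122% fell by as much), which is 18.5% of the members beside 6.74% of all tested genes (3.55% higher and 3.19% lower). The median log2 fold change was -0.07 over the members and -0.01 over all genes. SEMA3E (0.69 ± 0.19), NTN4 (0.66 ± 0.09), SEMA7A (0.63 ± 0.11), SEMA3A (0.59 ± 0.13), EPHA4 (0.46 ± 0.06) and SLIT2 (0.34 ± 0.09) were higher, and SEMA5A (-0.86 ± 0.10), SEMA6B (-0.73 ± 0.20), PLXNB1 (-0.57 ± 0.15) and SEMA4D (-0.27 ± 0.07) lower, all as log2 fold changes. SEMA7A and EPHA4, which rose with TGFβ, thus also rose with alisertib, SEMA7A 1.55-fold (adjusted p 0.00263) and EPHA4 1.37-fold (adjusted p 0.00063). SEMA3A and NTN4, which fell with TGFβ, rose 1.51-fold (adjusted p 0.0133) and 1.58-fold (adjusted p 0.000769). SEMA5A, a transmembrane semaphorin that binds PLXNB3, averaged 11.1 ± 0.753 CPM untreated and 6.12 ± 0.905 CPM with alisertib, 1.82-fold lower (adjusted p 0.000222). The SEMA6B libraries overlapped between the groups and those of the other 9 did not, where 21.6% of all tested genes, called or not, did not overlap. Called members were picked by a test on the same counts, so the 2 are not like for like.

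The calls for SEMA7A, EPHA4, NTN4 and SEMA5A held in all 18 other settings, and the other 6 were lost in at least 1: SEMA3A in 2 (adjusted p up to 0.0573), SEMA4D in 7 (0.148), SLIT2 in 7 (0.145), PLXNB1 in 8 (0.184), SEMA3E in 10 (0.166) and SEMA6B in 14 (0.235). Leaving out any 1 library other than untreated library 1 ended at least 1 of these calls. Without the 4 libraries that stood apart 9 members were higher and 17 lower, so the count of lower members with alisertib differed by more than 1.5 times with and without those libraries. Members called only in that setting are not named here. Over all genes the calls in this comparison also rose without those libraries, from 1387 to 5073 (2272 higher and 2801 lower).

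Added to TGFβ, alisertib changed few members. Against TGFβ alone the Combination group had 2 members higher, SEMA3A and NTN4, and 0 lower, 3.7% of the members beside 2.08% of all genes (1.19% higher and 0.89% lower). At an unadjusted p under 0.05 were 12 of 54 members, beside 2639 of all 20571 genes. DESeq2 called 3 lower, EFNA1, NRP2 and UNC5B, and 306 lower over all genes, where edgeR called 183. SEMA3A read 0.778, 0.684 and 0.7 CPM with TGFβ and 1.48, 1.14 and 1.3 CPM with both, 1.82-fold higher (log2 0.86 ± 0.14, adjusted p 0.00593), and these stayed below the 2.08, 1.72 and 1.85 CPM of untreated and 2.65, 2.78 and 3.1 CPM of alisertib libraries. NTN4 averaged 2.16 ± 0.0933 CPM with TGFβ and 2.95 ± 0.154 CPM with both, 1.37-fold higher (log2 0.45 ± 0.10, adjusted p 0.0258), a call lost with no filter on low counts, in a fit of only the 2 groups, and without any 1 of the TGFβ or Combination libraries or alisertib library 9 (adjusted p up to 0.139). SEMA3A and NTN4 were thus called higher with alisertib both with and without TGFβ, comparisons that share no library. Of all 20571 tested genes 141 were called higher in both.

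The interaction, the alisertib effect with TGFβ minus that without it, called no member (edgeR), where 0.282% of all genes were called. An unadjusted p under 0.05 was found for 8 of 54 members, beside 1170 of all 20571 genes. DESeq2 called 2, SEMA7A (adjusted p 0.00238) and EPHA4 (0.00667). In edgeR SEMA7A had -0.68 ± 0.15 (adjusted p 0.0904): it was 1.55-fold higher with alisertib than untreated, and with TGFβ present the alisertib difference was -0.05 ± 0.10 on the log2 scale. EPHA4 had -0.39 ± 0.09 (adjusted p 0.101), from 0.46 ± 0.06 without TGFβ and 0.07 ± 0.06 with it. SEMA6B had 1.04 ± 0.30 (adjusted p 0.28) and SEMA5A 0.54 ± 0.14 (adjusted p 0.229). With a covariate for the 4 libraries that stood apart 6 members passed, SEMA7A (adjusted p 8.64e-07), ROBO4 (0.00428) and EPHA4 (0.00686) lower and SEMA6B (0.00407), SEMA5A (0.0144) and PLXNA1 (0.0364) higher, and without those libraries 9 were higher and 3 lower. Over all genes the interaction called 58 in the main edgeR fit, 181 by DESeq2, 382 with the covariate and 744 without those libraries. The 4 libraries were picked by their deviation in these same counts, so neither setting is independent of the data.

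**Figure D4:**
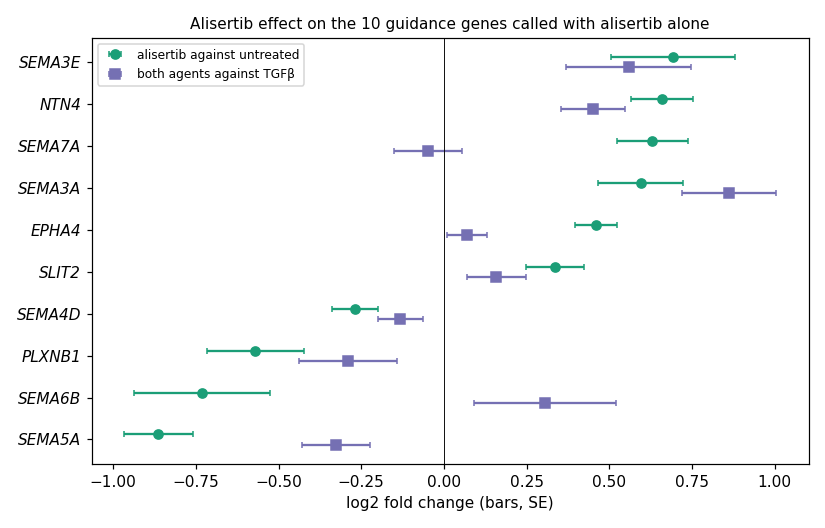
Log2 fold change with alisertib for the 10 members called in alisertib against untreated cells (circles), beside the same genes in both agents against TGFβ (squares), with bars for SE. SEMA3A and NTN4 are above 0 and called in both, while SEMA7A and EPHA4 are above 0 without TGFβ and within 0.1 of 0 with it.

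Both agents against no treatment gave 16 members higher and 11 lower, 50% beside 39.7% of all genes (19.4% higher and 20.3% lower). Changes of at least 2-fold numbered 9 upward and 5 downward, where 6% and 4.84% of all genes had them. This comparison shares the untreated libraries with those of the single agents, so the values are given side by side only. SEMA7A was 3.35 ± 0.11 on the log2 scale, UNC5B 2.92 ± 0.21, ROBO4 2.34 ± 0.15, EPHB2 2.06 ± 0.14 and SEMA3D -2.67 ± 0.23. SEMA3A, at -1.38 ± 0.14 with TGFβ alone and 0.59 ± 0.13 with alisertib alone, was -0.52 ± 0.13 with both, and NTN4, at -0.42 ± 0.10 and 0.66 ± 0.09, was 0.03 ± 0.09 and not called. PLXNB1, at -0.50 ± 0.15 and -0.57 ± 0.15, was -0.79 ± 0.15. EPHA5 (0.67 ± 0.25, adjusted p 0.0459) and EPHB3 (0.55 ± 0.15, adjusted p 0.00745) were called higher here and not with TGFβ alone; that difference between comparisons was not tested. EPHA5 rests on 30 to 79 counts per library and its span overlaps that of RP11-408P14.1, which holds many more reads, so its counts are uncertain. The EPHA5 call was lost in 13 of 18 other settings, that of EFNA1 (0.36 ± 0.13) in 9 and those of PLXNA1 (-0.52 ± 0.18) and ROBO3 (0.51 ± 0.17) in 5 each, with adjusted p up to 0.263, 0.205, 0.183 and 0.144, that of SEMA4C in 1, and leaving out any 1 of the 12 libraries ended at least 1 of these calls.

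The members called in none of the comparisons of the main fit were EPHA2, EPHB4, EPHB6, EFNA3 (both rows), EFNA4, EFNB1, EFNB2, EFNB3, SEMA3G, SEMA4A, SEMA4F, SEMA4G, SEMA6A, SEMA6C, PLXNB2, PLXNB3, PLXNC1, SLIT1, SLIT3 and ROBO1. Their calls in the other settings are not given here. Several were abundant: EPHA2 was 32.5 to 36 RPKM over the 4 group means, PLXNB2 8.96 to 11.1, EFNB2 9.71 to 11.9, SEMA4F 4.56 to 5.29 and EPHB4 4.4 to 5.13. The spans of EFNA3 and EFNA4 overlap each other in the genome, as do those of SLIT1, SEMA4G, PLXNC1 and SEMA6A with other counted genes that hold more reads, so their counts are uncertain. At the threshold of 10 counts in 3 libraries, SLIT3 was just inside with 3 libraries, 0 to 15 counts each, and NTN5 just outside with 2, at 14 and 12 counts. Not described for low counts were EPHA1, EPHA3, EPHA6, EPHA7, EPHA8, EPHB1, SEMA5B, SEMA6D, NTN1, NTN3, NTN5, UNC5A, UNC5C, UNC5D and ROBO2.

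The members' deviation within groups followed GC content, which the name patterns did not use. The longest annotated transcript of the 54 members had a GC content of 34.9% to 71.1% with a median of 58.7%. Across the 54 members Spearman's rho between GC content and the deviation of a library from its group mean was -0.742 in untreated library 1, -0.57 in TGFβ library 6, -0.417 in alisertib library 9 and -0.74 in Combination library 10, and 0.29 to 0.622 in the other 8. The members of a library share its depth and preparation, and each group's deviations sum to 0, so these are descriptions. Their part in the alisertib differences was not tested. GC-rich members such as SEMA4B, PLXND1, PLXNA1 and SEMA6B were low in those 4 libraries.

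**Figure D5:**
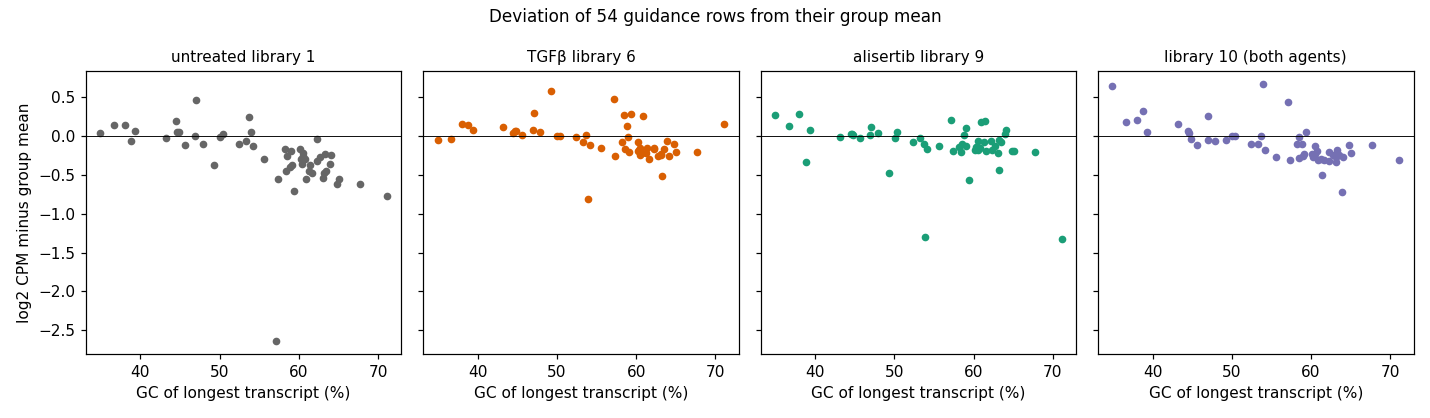
Deviation of each of the 54 guidance rows from its group mean (log2 CPM, y axis) against the GC content of its longest transcript (percent, x axis), in the 4 libraries that stood apart. GC-rich members lie mostly below 0 in all 4 panels, with rho from -0.742 to -0.417.

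The genes that work beside these receptors were read from a list of partners and modulators and a list of cytoplasmic effectors. Of 28 partners 18 were tested, and with TGFβ 8 were higher and 4 lower, 66.7% beside 38.6% of all genes (18.5% higher and 20.1% lower), with a median log2 fold change of 0.25 beside -0.01 over all genes. The 6 with the largest called changes were ISLR2, VEGFA, FLRT2, MMP14, ITGB1 and KDR. VEGFA, which shares neuropilins with the semaphorins, averaged 431 ± 60.8 CPM untreated and 1482 ± 64.7 CPM with TGFβ (log2 1.78 ± 0.09, adjusted p 5.97e-10). ITGB1, the integrin chain that SEMA7A binds, went from 2190.4 ± 140.1 to 5347 ± 236 CPM (log2 1.29 ± 0.06, adjusted p 2.77e-10), FLRT2, a ligand of UNC5 receptors, from 4.21 ± 0.289 to 13 ± 0.799 CPM (log2 1.63 ± 0.09), and MMP14, a membrane protease, from 349 ± 36.2 to 885 ± 44.8 CPM (log2 1.34 ± 0.08). KDR, the VEGF receptor that pairs with neuropilins, fell from 2.37 ± 0.221 to 1.1 ± 0.175 CPM (log2 -1.10 ± 0.15, adjusted p 3.37e-05), and ISLR2 averaged at most 0.194 CPM in any group. DCC, the classic netrin receptor, named after its values were seen, reached at most 0.0211 CPM in any library and was not tested.

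Of 45 effectors 41 were tested, and with TGFβ 17 were higher and 6 lower, 56.1% beside the same 38.6% of all genes, with a median log2 fold change of 0.12. The 6 with the largest called changes were VAV3, RHOD, DPYSL2, DPYSL3, ABL1 and SRGAP3. DPYSL2 (CRMP2), which carries semaphorin signals to microtubules, fell from 79.8 ± 3.36 to 23.5 ± 0.553 CPM (log2 -1.77 ± 0.06, adjusted p 8.61e-12), while its relative DPYSL3 rose from 0.312 ± 0.0747 to 0.695 ± 0.019 CPM (log2 1.16 ± 0.21). RHOD, a small GTPase that binds plexins, rose from 10.1 ± 1.33 to 36.6 ± 4.21 CPM (log2 1.86 ± 0.14, adjusted p 7.05e-08), and ABL1, a kinase downstream of ROBO receptors, from 116 ± 13 to 252 ± 20.6 CPM (log2 1.12 ± 0.10). VAV3, an exchange factor used by Eph receptors, was 0.0162 ± 0.0148 CPM untreated, a few reads, and 0.698 ± 0.12 CPM with TGFβ, and SRGAP3, a slit-ROBO effector, fell from 0.539 ± 0.0329 to 0.281 ± 0.101 CPM. With alisertib alone 2 partners rose and 2 fell (22.2%) and 4 effectors rose and 2 fell (14.6%), beside 6.74% of all genes. With both agents against TGFβ 1 partner was higher (5.56%) and 1 effector higher and 1 lower (4.88%), beside 2.08% of all genes. With both agents against alisertib 7 partners were higher and 4 lower (61.1%) and 17 effectors higher and 6 lower (56.1%), beside 38.4% of all genes. The interaction called none of either list by edgeR, where 0.282% of all genes were called. At an unadjusted p under 0.05 were 1 of 18 partners and 5 of 41 effectors, beside 1170 of all 20571 genes.

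Several members are best known from other cell types, so markers of those were read in the same libraries. Of 10 endothelial markers 9 were among the counted genes and 3 were tested. The sum of the 9 ran from 10.6 to 12.6 CPM over untreated libraries, from 22.3 to 25.2 over TGFβ libraries, from 16.1 to 17.5 over alisertib libraries and from 25.9 to 31.2 over Combination libraries, most of it ESAM (11.4 ± 1.24 CPM untreated and 23.2 ± 1.44 with TGFβ). Of the 3 tested, ESAM and TIE1 were called higher with TGFβ and with alisertib, and ESAM, TIE1 and TEK with both agents against untreated cells and against alisertib. TIE1 was at 0 in the untreated libraries and averaged 0.122 ± 0.0429 CPM with TGFβ (adjusted p 0.0002), 0.0945 ± 0.0372 with alisertib and 0.245 ± 0.0553 with both. TEK averaged 0.528 ± 0.0846 CPM untreated, 0.726 ± 0.107 with TGFβ, 0.467 ± 0.0743 with alisertib and 0.852 ± 0.155 with both. Of the markers not tested, CLDN5 and MMRN1 were at 0 in every library, and CDH5 averaged 0.0129 ± 0.0224 CPM untreated and 0.0125 ± 0.0217 CPM with TGFβ, beside ROBO4 at 15.8 ± 3.32 and 77.3 ± 9.88. PECAM1, VWF, ERG and EMCN were not tested either, and their values are not given here. Of 10 leukocyte markers 7 were tested, of which CSF1R and CD68 were called higher with TGFβ and CD14 and LYZ lower, and their sum was 53.4 to 72.3 CPM untreated and 126 to 145 CPM with TGFβ, most of it CD68 and CSF1R, with PTPRC at 0.15 ± 0.0106 and 0.0683 ± 0.0702. Neuronal and glial markers summed to between 4.38 and 7.11 CPM in all 12 libraries, with STMN2 at 0, and with TGFβ SYT1 was called higher and GFAP lower. Luminal breast markers summed to 712 to 886 CPM untreated and 816 to 965 with TGFβ, with KRT19 and XBP1 called higher and MUC1, EPCAM and GATA3 lower. Their part in the results for the guidance genes was not tested.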

How the data were processed

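RNA was sequenced in 12 libraries, 4 groups of 3. Libraries of total RNA came from a TruSeq v2 kit, per the labels' protocols; that kit keeps no strand. The build is hg19 and the tools are TopHat, featureCounts of Subread, and bcl2fastq, per the submitters' processing notes, with versions and settings not given in the sources used here. In 1 table, the authors deposited whole-number read counts per gene without normalisation, RPKM values that they computed from those counts, and gene lengths. RPKM served to compare levels between genes, and group means of it are also set side by side. All tests and fold changes came from the counts.

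The deposited counts entered edgeR 4.0.16 (R 4.3.3) unchanged: filterByExpr over the 4 groups, TMM factors, 1 robust quasi-likelihood fit of all 12 libraries with 8 residual degrees of freedom, and Benjamini-Hochberg adjustment over 20571 genes, called at an adjusted p under 0.05. Standard errors are the size of a fold change over the root of its F value. The fit was tested on simulated counts with independent libraries and the same dispersion (spread beyond counting noise) for every gene. No simulated library stood apart, so that test does not bear on calls that depend on such libraries. DESeq2 1.42.0, its size factors in edgeR, no filter, only the groups compared, a covariate for 4 libraries and leaving out each library were alternatives, and leaving out those 4 libraries was added after seeing the data. The 4 libraries were picked by their deviation in these same counts, so the covariate rests on these data too. Promoters were taken from RefSeq (GRCh38.p14) and GC content from the longest GENCODE transcript.

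The members and lists were chosen with earlier results of these data known. Values in every library are given for members called with at least a 2-fold change in 1 of 5 pairwise comparisons, other called members are given by fold change, and from the partner and effector lists the 6 called genes with the largest changes with TGFβ are named.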

Additional observations from a re-analysis of the deposited data

How the results depend on the processing

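No paired analysis was possible because the groups share no replicate numbers. No direction of a called member reversed in any of the 18 other settings, and the counts with TGFβ against untreated and with both agents against untreated stayed within 1.5 times. The count of members lower with alisertib, 4, was 1 in a fit of only the 2 groups, 14 with the covariate, 17 without the 4 libraries that stood apart and 1 to 10 with single libraries left out, and the count higher, 6, was 3 to 7 with single libraries left out and 4 to 9 in the other 6 settings. The count of all genes lower with alisertib, 657, was 269 in the fit of 2 groups, 2237 with the covariate and 2801 without the 4 libraries. For both agents against TGFβ, the 2 higher members were 1 without the filter on low counts, 1 in the fit of 2 groups and 1 to 2 with single libraries left out, and the 0 lower were 3 by DESeq2, 2 in the fit of 2 groups, 6 with the covariate, 3 without the 4 libraries and 0 to 1 with single libraries left out. The 183 lower over all genes were 306 by DESeq2, 167 in the fit of 2 groups, 902 with the covariate and 751 without the 4 libraries. For both agents against alisertib the 7 lower members were 11 with the covariate, where the 3903 lower over all genes were 4973. For the interaction the 0 higher members were 3 with the covariate, 9 without the 4 libraries and 0 to 1 with single libraries left out, and the 0 lower were 2 by DESeq2, 3 with the covariate, 3 without the 4 libraries and 0 to 1 with single libraries left out. The 58 interaction calls over all genes were 181 by DESeq2, 382 with the covariate and 744 without the 4 libraries. The cause was not tested. Of called members, 21 of 25 with TGFβ, 4 of 10 with alisertib, 22 of 27 with both agents against untreated, 1 of 2 against TGFβ and 21 of 26 against alisertib kept their call in every setting. No setting moved the median of all genes by over 0.1 on the log2 scale. At 54 members at least 10 counts were asked for, and 45 had at least 100; for EFNA2, SLIT3 and the other low members the depth limits what can be seen.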
